A study of Mus musculus with 10 samples.

Results

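The genes described here encode 9 secreted signals through which lung epithelium addresses blood vessels and mesenchyme: the vascular endothelial growth factor genes Vegfa, Vegfb, Vegfc and Pgf, the platelet-derived growth factor genes Pdgfa, Pdgfb and Pdgfc, Shh, which encodes sonic hedgehog, and Edn1, which encodes the precursor of endothelin-1. They were chosen by symbol and are 9 of 22180 genes measured on Affymetrix arrays in sorted epithelial cells of mouse lungs at postnatal day 4, with 1 probe set for each of the 9. Axin2+ arrays (n = 5) held RNA of cells sorted as positive for TdTomato and the epithelial protein EpCAM and negative for CD31 (endothelium) and CD45 (leukocytes), from Axin2CreERT2-TdTomato mice. SP-C+ arrays (n = 5) held RNA of YFP-positive cells from SftpcCreERT2-R26REYFP mice after 24 h of lineage tracing. In the first line the inducible Cre is driven by Axin2, a Wnt target gene expressed in many cell types, and in the second by Sftpc, the surfactant protein C gene of type 2 alveolar cells (AEC2s). Mice of both lines were of mixed background (C57BL/6, 129S6, CD-1), no treatment is labelled, and all 10 samples are labelled as AEC2s. The labels do not say whether a sample pooled animals. Mouse line, reporter and gate differ together with the group and cannot be told apart from it.

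As background, alveolar epithelium releases VEGF-A, which binds receptors on the capillary endothelium and is needed for that bed to form. PDGF-A, the product of Pdgfa, acts on PDGF receptor alpha of myofibroblast precursors that build the alveolar septa, while PDGF-B is best known as an endothelial signal that recruits pericytes through PDGF receptor beta. Sonic hedgehog from the epithelium binds patched receptors on mesenchyme, and endothelin-1 contracts smooth muscle of vessels and airways.

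The values are log2 probe set values, in which residual background shrinks the differences of dim genes. A difference is Axin2+ minus SP-C+. Genes with a p under 0.05 in limma after Benjamini-Hochberg adjustment over all 22180 genes count as called. SP-C+ replicates 4 and 5 stood apart from SP-C+ replicates 1, 2 and 3 in some of the genes. Results are therefore also given without the one set and without the other, a split chosen with these data known. In genes that it divides, such as Shh and Edn1, p-values under this split depend on that choice and are descriptive only. Of the 9 ligand genes, 5 were called, 3 higher (Pdgfb, Vegfa and Pdgfa) and 2 lower (Vegfb and Pdgfc) in Axin2+ arrays. Among all genes 17.6% were called, 8.61% higher and 8.95% lower, so that 49% of calls were higher, against 40.7% with arrays centred on their medians. The share was larger among brighter genes. In a fit of the 11090 genes above the 50th percentile of mean values, 3782 were called, 1605 higher and 2177 lower. That fit held 7 of the ligand genes, of which 6 were called, 4 higher and 2 lower. The median difference of the 9 genes was 0.08, against -0.04 for all genes. In 4 of the 9 (Vegfa, Vegfb, Pdgfa and Pdgfb) the groups did not overlap, which held for 15.0% of all genes. The labels do not say that replicates are separate animals, so p-values measure the spread between these samples only.

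Sequence around the start is shown for Vegfa and Pdgfa, which rose together, and for Vegfb, which fell, so that the start regions of genes moving in both directions can be set side by side. The RefSeq promoter table (GRCm38.p6) held 7 of the 9 genes, with Pdgfb and Shh not among them. Each run covers 250 bases before and 50 bases after a start, 5′ to 3′ on the strand of the gene. Capitals mark the GC box, GGGCGG or its reverse complement CCGCCC. The first is the more upstream of the pair of Vegfa starts, chr17:46032328-46032627 on the minus strand, the second the more upstream of the pair of Pdgfa starts, chr5:138994895-138995194 on the minus strand, and the third the start of Vegfb, chr19:6987602-6987901 on the minus strand.
Vegfa: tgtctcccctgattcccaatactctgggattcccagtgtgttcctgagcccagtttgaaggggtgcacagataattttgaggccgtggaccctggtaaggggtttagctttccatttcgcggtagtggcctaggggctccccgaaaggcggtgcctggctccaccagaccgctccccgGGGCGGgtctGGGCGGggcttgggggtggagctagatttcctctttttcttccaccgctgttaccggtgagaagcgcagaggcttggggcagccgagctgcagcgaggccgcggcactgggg
Pdgfa: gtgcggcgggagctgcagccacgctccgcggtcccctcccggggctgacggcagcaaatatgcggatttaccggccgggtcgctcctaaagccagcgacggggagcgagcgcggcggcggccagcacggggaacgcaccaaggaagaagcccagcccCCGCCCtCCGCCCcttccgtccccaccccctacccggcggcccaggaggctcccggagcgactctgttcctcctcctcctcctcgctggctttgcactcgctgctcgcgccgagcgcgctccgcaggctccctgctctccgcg
Vegfb: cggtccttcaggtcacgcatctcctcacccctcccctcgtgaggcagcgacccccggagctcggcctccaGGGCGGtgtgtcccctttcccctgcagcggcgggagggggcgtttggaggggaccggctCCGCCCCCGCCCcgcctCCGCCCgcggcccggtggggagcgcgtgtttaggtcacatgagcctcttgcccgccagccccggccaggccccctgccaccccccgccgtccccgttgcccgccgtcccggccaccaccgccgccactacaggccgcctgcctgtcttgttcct

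The Vegfa window held 2 GC boxes, which began 72 and 62 bases before the start, and the Pdgfa window held 2, at 93 and 86 bases. The Vegfb window held 4, between 180 and 104 bases before the start. A GC box was present in 35.7% of the 32851 windows in the table. GC content was 62.0% for Vegfa, 73.3% for Pdgfa and 75.3% for Vegfb, above 75.3%, 94.5% and 96.4% of windows. The 3 windows shown thus all had GC boxes, whether the gene was higher or lower. The window of Pdgfc, which was also called lower and is not shown, held 0 GC boxes, with a GC content of 55.0%. The other letters searched on both strands were ACGTG, the core bound by hypoxia-inducible factors, CTTTG, a TCF/LEF core, GGAATG, a TEAD core, and TATAAA, the TATA box. Of these, the 3 windows held 1 match, a CTTTG in the Pdgfa window. ACGTG was present in 19.6% of all windows, CTTTG in 53.9%, GGAATG in 14.7% and TATAAA in 13.6%. No matches overlapped in these windows. At the other Vegfa start, chr17:46025114-46025413 on the minus strand, there were 1 GC box, 1 ACGTG and 2 CTTTG. At the Pdgfc start, chr3:81036166-81036465 on the plus strand, there were 2 CTTTG and 2 GGAATG. These matches describe letters and are not evidence of binding.

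Vegfa, the main angiogenic ligand of the family, was 2.11-fold higher in Axin2+ arrays. It measured 12.61, 12.47, 12.78, 12.71 and 12.75 in Axin2+ replicates 1 to 5, against 11.74, 11.71, 11.64, 11.46 and 11.39 in SP-C+ replicates 1 to 5. All Axin2+ arrays lay above all SP-C+ arrays. The means were 12.66 ± 0.13 and 11.59 ± 0.15 (SD, n = 5 each), differing by 1.08 ± 0.09 SE (95% confidence interval 0.87 to 1.28, adjusted p = 3.25e-06 in limma). This difference exceeded those of 97.4% of genes.

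Vegfb, whose product binds the receptor Flt1 and has a weak angiogenic effect, ran the other way. It measured 9.76, 9.72, 9.75, 9.70 and 9.83 in Axin2+ arrays, against 10.14, 10.07, 10.20, 10.42 and 10.18 in SP-C+ arrays. The groups did not overlap, and SP-C+ replicate 4 was the highest. The means were 9.75 ± 0.05 and 10.20 ± 0.13 (SD), a difference of -0.45 ± 0.08 SE (adjusted p = 0.00139), or 1.37-fold lower.

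Vegfc, the lymphatic growth factor, and Pgf, placenta growth factor, did not pass. Vegfc lay between 5.91 and 6.26 in Axin2+ and between 5.95 and 6.13 in SP-C+ arrays, and the groups differed by 0.07 (95% confidence interval -0.11 to 0.24, adjusted p = 0.645 in limma). Pgf lay between 5.08 and 5.44 in Axin2+ and between 4.92 and 5.26 in SP-C+ arrays, and the groups differed by 0.08 (-0.12 to 0.28, adjusted p = 0.641). Both genes were below the median gene on all 10 arrays, whereas the other 7 were above it on all 10. The table holds no detection calls, so whether these 2 probe sets measured transcript was not tested.

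Among the PDGF ligands Pdgfb had the largest difference of the 9 genes. It measured 9.63, 9.21, 10.27, 9.86 and 9.80 in Axin2+ arrays, against 7.54, 7.38, 7.55, 7.72 and 7.43 in SP-C+ arrays. The lowest Axin2+ array lay well above the highest SP-C+ array, and Axin2+ arrays varied more. The means were 9.75 ± 0.38 and 7.53 ± 0.13 (SD, n = 5 each), 4.69-fold higher (difference 2.23 ± 0.16 SE, 95% confidence interval 1.89 to 2.57, adjusted p = 4.63e-07 in limma). Only 154 of 22180 genes had a larger difference.

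Pdgfa rose less than Pdgfb. It measured 9.03, 8.91, 9.25, 8.91 and 9.17 in Axin2+ arrays, against 8.31, 8.06, 8.10, 8.36 and 8.12 in SP-C+ arrays. Every Axin2+ array was above every SP-C+ array, by 1.82-fold between the means (difference 0.86 ± 0.09 SE, adjusted p = 2.90e-05). In both genes Axin2+ replicate 3 was highest. The log2 ratio of Pdgfb to Pdgfa within an array was 0.70 ± 0.29 in Axin2+ and -0.66 ± 0.08 in SP-C+ arrays (SD, n = 5 each), a difference of 1.37 (exact permutation p = 0.00794, two-sided, the smallest these arrays allow, and 0.00794 after adjustment over the 3 pairs computed). The pair was chosen after the values were seen, and the adjustment does not cover that choice. Such a ratio compares 2 probe sets, so only its change between groups is read.

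Pdgfc, which encodes a latent ligand of PDGF receptor alpha, was lower by a margin that only just passed. It measured 7.49, 7.19, 7.65, 8.01 and 7.65 in Axin2+ arrays, against 8.01, 8.66, 8.76, 8.23 and 7.59 in SP-C+ arrays. The groups overlapped through SP-C+ replicates 1 and 5 and Axin2+ replicates 3, 4 and 5. The difference was -0.65 ± 0.21 SE (95% confidence interval -1.11 to -0.20, adjusted p = 0.0499964 in limma, just under the threshold, exact permutation p = 0.0556). When arrays were left out one at a time, the call was kept in the absence of Axin2+ replicate 4 or of SP-C+ replicate 5 and was lost in the other 8 cases, with the highest adjusted p, 0.117, for Axin2+ replicate 2. With the replicate number as a block it was also lost (adjusted p = 0.0751), and 4 of the 9 genes were called, against 13.4% of all genes.

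**Figure D1:**
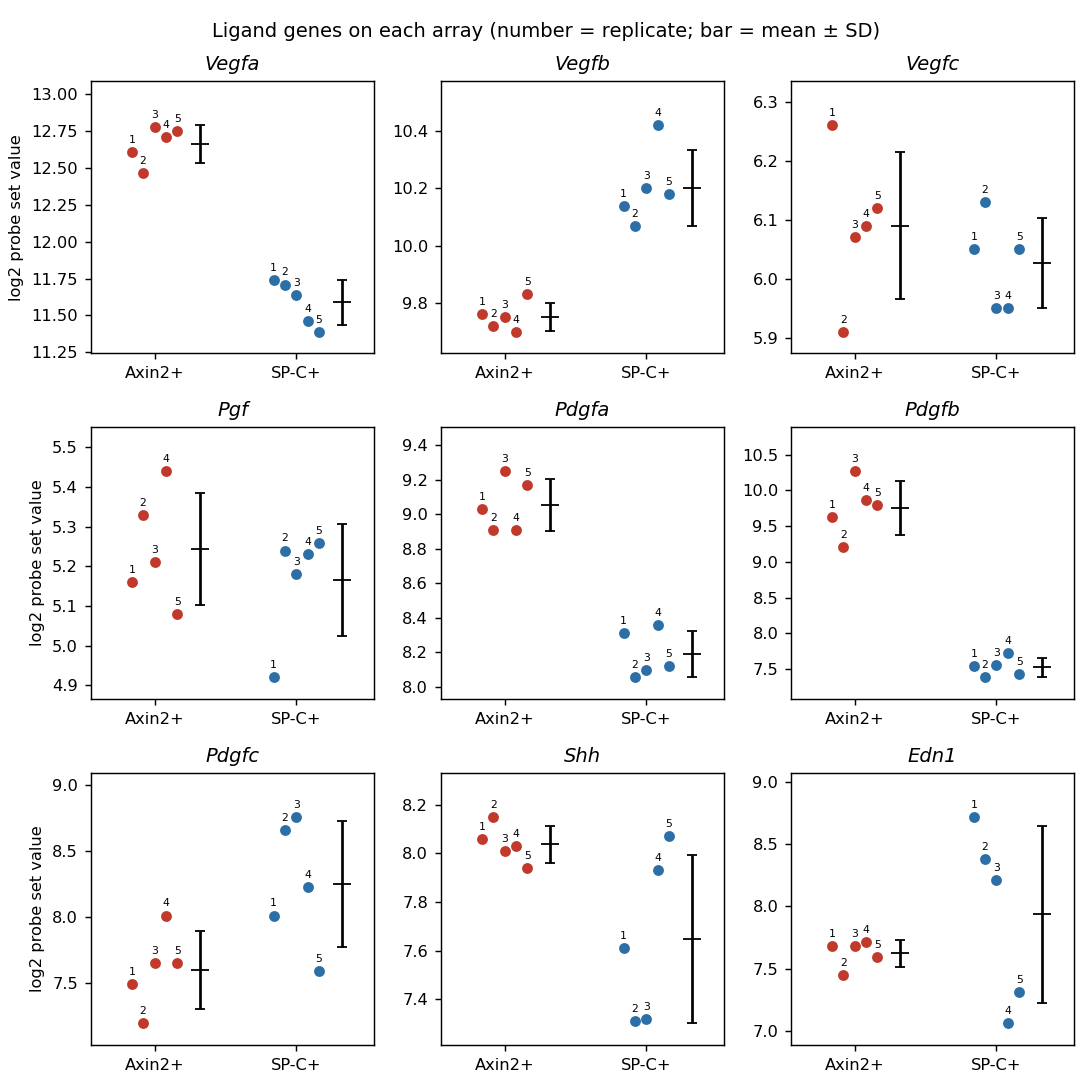
Log2 probe set values of the 9 ligand genes on each array, with Axin2+ arrays in red on the left and SP-C+ arrays in blue on the right of each panel; numbers are replicates and black bars the mean ± SD (n = 5), and axes do not start at 0. The groups are apart in Vegfa, Vegfb, Pdgfa and Pdgfb, and in Edn1 the Axin2+ arrays (7.45 to 7.71) lie between SP-C+ replicates 4 and 5 and SP-C+ replicates 1, 2 and 3.

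Shh did not pass with all arrays. It measured 8.06, 8.15, 8.01, 8.03 and 7.94 in Axin2+ arrays, against 7.61, 7.31, 7.32, 7.93 and 8.07 in SP-C+ arrays. SP-C+ replicates 4 and 5 were at the level of the Axin2+ arrays, and SP-C+ replicates 1, 2 and 3 lay below all of them. The difference was 0.39 ± 0.14 SE (95% confidence interval 0.09 to 0.69, adjusted p = 0.0737 in limma, exact permutation p = 0.0556). It passed without SP-C+ replicate 4 (0.46, adjusted p = 0.0434) and without SP-C+ replicate 5 (0.50, adjusted p = 0.0149).

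Edn1 varied more among SP-C+ arrays than between the groups. It measured 7.68, 7.45, 7.68, 7.71 and 7.59 in Axin2+ arrays, against 8.72, 8.38, 8.21, 7.06 and 7.31 in SP-C+ arrays. SP-C+ replicates 1, 2 and 3 lay above all Axin2+ arrays, and SP-C+ replicates 4 and 5 below all of them. The SD was 0.11 in Axin2+ and 0.72 in SP-C+ arrays, and the difference of -0.31 ± 0.27 SE did not pass (95% confidence interval -0.89 to 0.26, adjusted p = 0.488). Without SP-C+ replicates 4 and 5 Edn1 was lower in Axin2+ arrays by -0.82 (adjusted p = 6.87e-04), and without SP-C+ replicates 1, 2 and 3 it was higher by 0.44 (adjusted p = 0.0295), so the choice of SP-C+ arrays set its direction.

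The same division of SP-C+ arrays thus ran in opposite directions in Shh and Edn1, while for Pdgfc replicate 1 lay between replicates 4 and 5. Vegfa was a little higher in SP-C+ replicates 1, 2 and 3 (11.64 to 11.74) than in replicates 4 and 5 (11.39 and 11.46), all of them below the lowest Axin2+ array. When SP-C+ replicates 4 and 5 were left out, 7 of the 9 genes were called, against 19.4% of all genes. Of these, 4 were higher (9.57% of all genes) and 3 lower (9.82%), with Shh and Edn1 added. Shh and Edn1 are themselves divided by this split, so their added calls and the larger count depend on its choice. Without SP-C+ replicates 1, 2 and 3, 5 of the 9 were called, against 12.8% of all genes. Of these, 4 were higher (6.78%) and 1 lower (6.02%), with Edn1 among the higher ones. There Shh was at 0.04 (adjusted p = 0.833) and Pdgfc at -0.31 (adjusted p = 0.425). Vegfa, Vegfb, Pdgfa and Pdgfb kept their direction and their call in both.

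**Figure D2:**
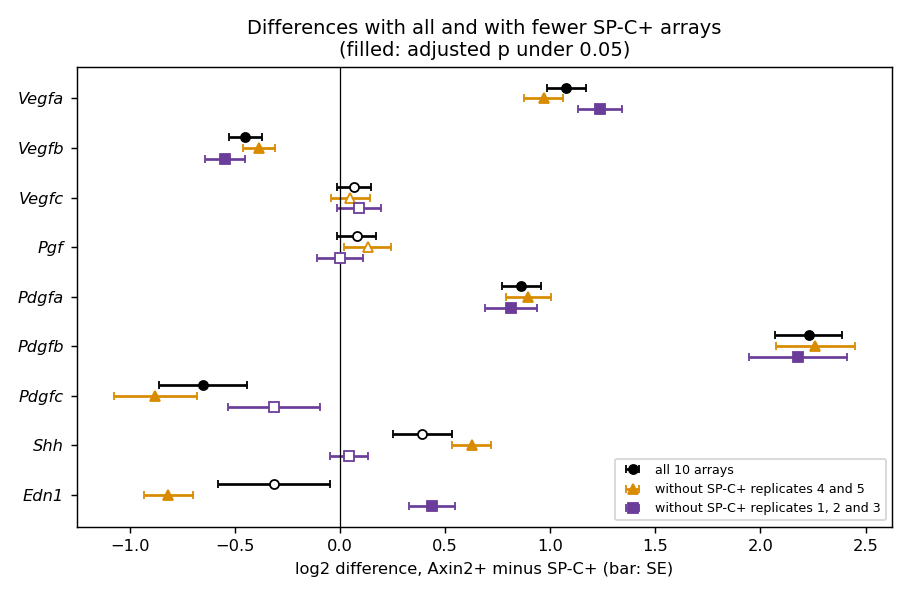
Log2 difference, Axin2+ minus SP-C+, of each ligand gene with all 10 arrays (circles), without SP-C+ replicates 4 and 5 (triangles) and without SP-C+ replicates 1, 2 and 3 (squares); bars are SE and filled symbols have an adjusted p under 0.05. Vegfa, Vegfb, Pdgfa and Pdgfb stay in place, whereas Edn1 moves between -0.82 and 0.44 and Shh between 0.63 and 0.04.

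**Figure D3:**
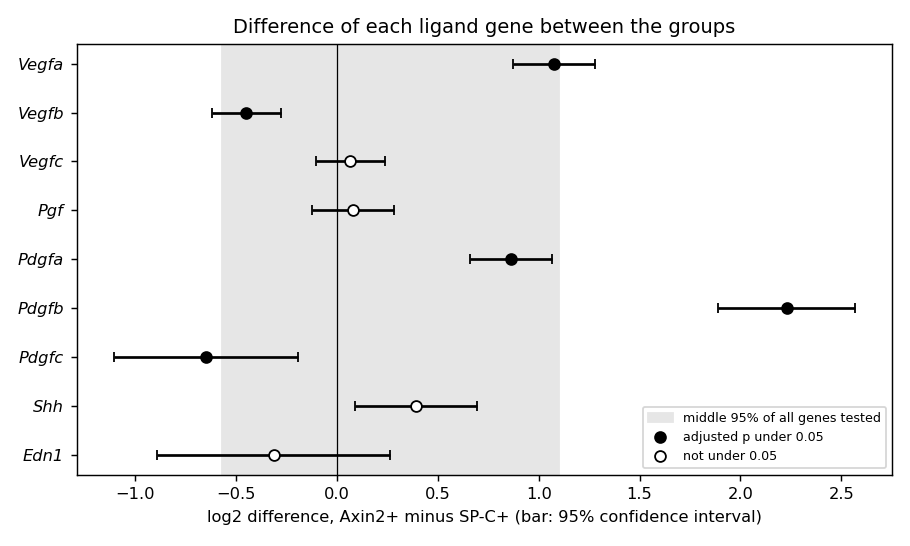
Log2 difference, Axin2+ minus SP-C+, of each ligand gene with its 95% confidence interval (n = 5 arrays per group); filled points have an adjusted p under 0.05 and the grey band spans the middle 95% of the differences of all genes (-0.57 to 1.10). Pdgfb, at 2.23, lies outside the band with its whole interval.

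Receptors and partners of these ligands were described by lists of names. Among VEGF partners 2 of 8 were higher and 1 lower (median -0.13). Nrp2, a co-receptor for VEGF and semaphorins, ranged over 10.27 to 10.72 in Axin2+ arrays, against 9.15 to 9.52 in SP-C+ arrays. It was higher by 1.19 ± 0.10 SE (adjusted p = 3.90e-06 in limma), while its paralogue Nrp1 was at -0.10 (adjusted p = 0.612). Vegfd, a lymphangiogenic ligand, was higher by 0.55 ± 0.17 (adjusted p = 0.0395), a call kept in only 2 of the 10 fits without 1 array, those that left out Axin2+ replicate 3 or SP-C+ replicate 1, and it was at 0.36 (adjusted p = 0.185) when SP-C+ replicates 4 and 5 were left out. Adamts3, a protease that activates the Vegfc product, was lower by -0.57 ± 0.12 (adjusted p = 0.00519), but at -0.33 did not pass when SP-C+ replicates 1, 2 and 3 were left out (adjusted p = 0.0900). The signalling receptor genes Kdr, Flt1 and Flt4 were at 0.07, -0.31 and -0.21 and did not pass. Of the 8 partners only Nrp1 and Nrp2 were above the median gene on all arrays of either group. Whether the other probe sets, those of Vegfd and Adamts3 included, measured transcript was not tested.

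Of 5 PDGF partners 1 was lower and 0 were higher in limma (2 and 0 at an unadjusted p under 0.05), with a median of -0.07. The lower one was Pdgfra, the receptor of PDGF-A, at 5.01 to 5.36 in Axin2+ and 5.39 to 5.98 in SP-C+ arrays (difference -0.49 ± 0.13 SE, adjusted p = 0.0164). Its call ended without SP-C+ replicates 1, 2 and 3 (adjusted p = 0.0789 in limma), a fit with fewer arrays. Pdgfra measured 5.95, 5.48 and 5.60 in those replicates, against 5.98 and 5.39 in SP-C+ replicates 4 and 5. Pdgfrb, the receptor of PDGF-B, was at -0.07 (adjusted p = 0.823). On all Axin2+ arrays 0 of the 5 were above the median gene, and on all SP-C+ arrays also 0. Whether these probe sets, that of Pdgfra included, measured transcript was not tested.

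Of 15 hedgehog pathway genes 2 were higher and 1 lower (median -0.07). Cdon and Boc, which encode related co-receptors, moved in opposite directions, Cdon by 0.42 ± 0.10 (adjusted p = 0.0103) and Boc by -0.38 ± 0.09 (adjusted p = 0.00894). Ptch1, the receptor and a target gene of the pathway, was higher by 0.27 ± 0.07 (adjusted p = 0.0220), a call lost without Axin2+ replicate 3 (adjusted p = 0.0644). Gli1, the usual transcriptional readout of the pathway, was at -0.14 (adjusted p = 0.234) and Hhip, another target, at -0.24 (adjusted p = 0.290). None of these 3 calls held when SP-C+ replicates 1, 2 and 3 were left out, with adjusted p-values of 0.182 for Cdon, 0.115 for Boc and 0.0880 for Ptch1. That fit has fewer arrays. Ptch1 measured 10.18 and 10.36 in SP-C+ replicates 4 and 5, against 10.23 to 10.38 in replicates 1, 2 and 3.

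In the endothelin system 2 of 5 genes were higher and 0 lower in limma (2 and 1 at an unadjusted p under 0.05), with a median of 0.03. Edn3, the ligand gene for endothelin-3, measured 8.86, 8.77, 9.11, 8.90 and 8.78 in Axin2+ arrays, against 7.79, 7.16, 7.47, 7.43 and 7.66 in SP-C+ arrays. All Axin2+ arrays were above all SP-C+ arrays, with a 2.61-fold difference (1.38 ± 0.12 SE, adjusted p = 2.47e-06). Ece1, the enzyme that cleaves big endothelins, was higher by 0.54 ± 0.10 (adjusted p = 0.00196). Thus Edn3 and Ece1 were called and Edn1 was not.

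Of 14 angiopoietin and other angiogenic signal genes 1 was higher and 1 lower (median -0.17). Sema3a, which encodes a semaphorin ligand of neuropilins, was 5.8-fold higher, at 7.50 to 8.69 in Axin2+ and 5.35 to 6.10 in SP-C+ arrays (difference 2.54 ± 0.22 SE, adjusted p = 2.83e-06). Adm, which encodes the vasodilator adrenomedullin, was lower by -0.60 ± 0.19 (adjusted p = 0.0487), a call kept in only 3 of the 10 fits without 1 array, those without Axin2+ replicate 1, SP-C+ replicate 1 or SP-C+ replicate 4. In the absence of SP-C+ replicates 1, 2 and 3 Adm was at -0.26 (adjusted p = 0.386). Over the 5 lists of partners, 11 of 47 genes were called (7 higher and 4 lower), against 17.6% of all genes. This count was 6 without SP-C+ replicates 1, 2 and 3 (5 higher and 1 lower), against 12.8% of all genes there. It was 14 without SP-C+ replicates 4 and 5 (5 higher and 9 lower), against 19.4% of all genes.

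Enzymes that cut ligand precursors were a further list. Pdgfa, Pdgfb and Vegfc products are cleaved by furin-type proprotein convertases. Of 4 such genes Furin was lower by -0.45 ± 0.08 (adjusted p = 0.00158 in limma), Pcsk5 was higher by 0.77 ± 0.14 (adjusted p = 0.00221) and Pcsk6 by 0.61 ± 0.19 (adjusted p = 0.0472). The Pcsk6 call was kept in only 3 of the 10 fits without 1 array, those without Axin2+ replicate 5, SP-C+ replicate 4 or SP-C+ replicate 5. In the absence of SP-C+ replicates 1, 2 and 3 Pcsk6 was at 0.13 (adjusted p = 0.676).

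A further list held genes of the hypoxia response, of which Vegfa is a known target in many cell types. Of 17 measured, 8 were lower and 0 higher in limma (11 and 0 at an unadjusted p under 0.05), with a median of -0.27. Among all genes 8.95% were lower and 8.61% higher. The list is bright, with 16 of the 17 above the median gene on all Axin2+ arrays and 17 on all SP-C+ arrays. In the fit of genes above the 50th percentile, 2177 of 11090 were lower and 1605 higher. The part of hypoxia signalling in the Vegfa difference was not tested. Egln3, an oxygen-sensing prolyl hydroxylase induced by hypoxia, was lower by -1.47 ± 0.33 (adjusted p = 0.00826), and Ndrg1, another hypoxia-induced gene, by -1.10 ± 0.20 (adjusted p = 0.00218). Epas1, which encodes HIF-2alpha and is named here after its value was seen, measured 10.36, 10.37, 10.24, 10.37 and 10.61 in Axin2+ arrays, against 11.53, 11.60, 11.52, 11.31 and 11.10 in SP-C+ arrays. Those groups did not overlap, and the difference was -1.02 ± 0.11 (adjusted p = 1.70e-05). Without SP-C+ replicates 1, 2 and 3, 5 of the 17 were lower, against 6.02% of all genes. In that fit neither Egln3 (-0.66, adjusted p = 0.145 in limma) nor Ndrg1 (-0.65, adjusted p = 0.0759) passed. Within SP-C+ arrays the list mean was 9.74 to 9.78 in replicates 1, 2 and 3 and 9.54 to 9.59 in replicates 4 and 5, against 9.18 to 9.34 in Axin2+ arrays.

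**Figure D4:**
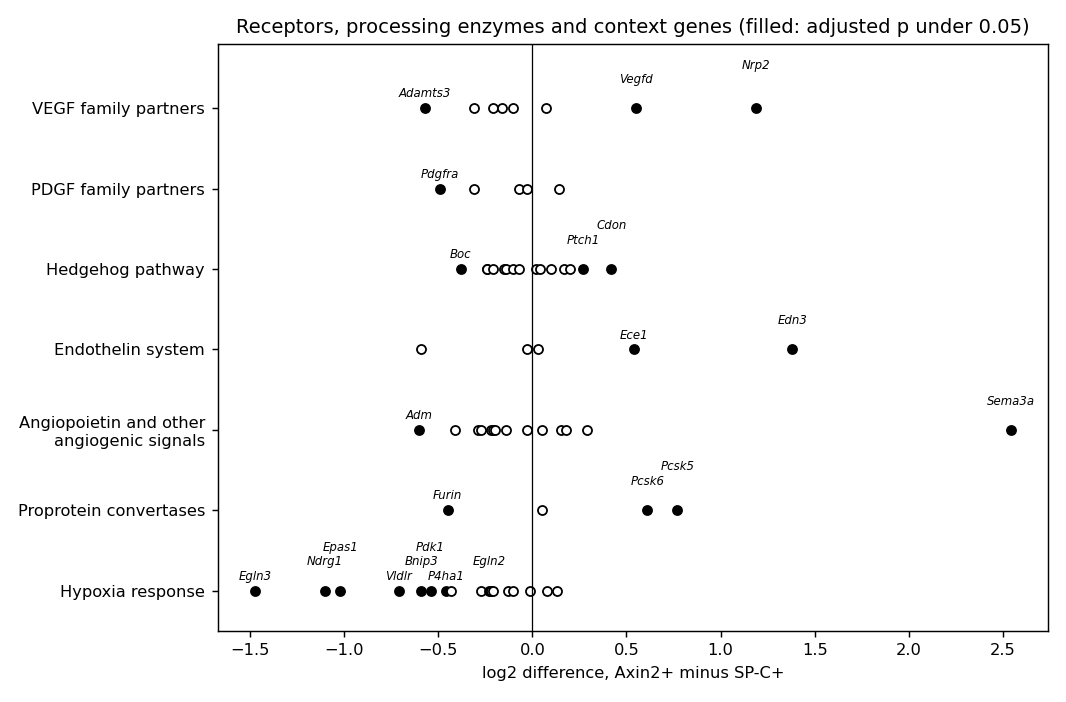
Log2 difference, Axin2+ minus SP-C+, of each gene of the partner lists, the proprotein convertases and the hypoxia response; each point is a gene, filled and labelled where the adjusted p is under 0.05. Sema3a (2.54), Edn3 (1.38) and Nrp2 (1.19) lie farthest to the right, and all 8 called hypoxia genes lie left of 0.

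Markers of other epithelial cells moved with the groups in the same arrays as Vegfa, Pdgfa and Pdgfb. All 15 markers of type 1 alveolar cells (AEC1s), which line most of the alveolar surface, were higher in Axin2+ arrays, with list means of 11.26 to 11.66 in Axin2+ and 8.62 to 9.20 in SP-C+ arrays (Spock2 by 4.54 and Sema3e by 4.2 led). Of 11 ciliated cell markers 10 were higher, with means of 8.29 to 8.63 in Axin2+ and 5.94 to 6.14 in SP-C+ arrays (Cdhr3 by 4.36 and Sntn by 4.07 led), and of 7 club cell markers 5 were, with 8.08 to 8.44 in Axin2+ and 6.66 to 7.12 in SP-C+ arrays (Scgb1a1 by 2.73 and Aldh1a1 by 2.68 led). Of 7 basal and neuroendocrine markers 3 were higher, Pcsk1 and Ddc foremost, with a list median of 0.02. Trp63 (-0.12), Krt14 (0.01), Chga (-0.14) and Chgb (0.02) were not called. On all Axin2+ arrays 1 of the 7 was above the median gene, and on all SP-C+ arrays 0. Whether the others measured transcript was not tested. Of 15 AEC2 markers 3 were lower (Cebpa, Fabp5 and Sftpd) and 0 higher in limma. At an unadjusted p under 0.05, 8 were lower and 0 higher, and 14 had a negative difference. Their list means were 12.63 to 12.75 in Axin2+ and 12.86 to 12.92 in SP-C+ arrays. Sftpc measured 14.08 to 14.15 in Axin2+ and 13.97 to 14.05 in SP-C+ arrays, near the highest value of any probe set, 14.16. It was at 0.10 and not called (adjusted p = 0.324). All 15 AEC2 markers were above the median gene on all arrays. AEC1 markers above it on every array of a group numbered 15 of 15 in Axin2+ and 13 of 15 in SP-C+, ciliated markers 11 and 2 of 11, and club markers 4 and 4 of 7. AEC2 markers were thus high in both groups, and neither group showed AEC2 markers alone. Axin2, the gene that drives the Cre of the Axin2+ line, went against that group's name: it was 7.93 ± 0.12 on Axin2+ arrays and 8.46 ± 0.06 on SP-C+ arrays (SD, n = 5 each). It was lower by -0.53 ± 0.08 SE in Axin2+ arrays, with no overlap (adjusted p = 3.28e-04 in limma). The part of these markers in the ligand differences was not tested. In bulk RNA, fewer cells of a type and less RNA per cell cannot be told apart.

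Endothelial markers varied within SP-C+ arrays, and Pdgfb and Edn1 are both expressed by endothelium. Of 10 such markers 0 were called in limma (1 higher and 1 lower at an unadjusted p under 0.05), with list means of 6.58 to 6.87 in Axin2+ and 6.47 to 7.69 in SP-C+ arrays. On all Axin2+ arrays 3 of the 10 were above the median gene and on all SP-C+ arrays 4. On SP-C+ replicates 1 to 5 the mean of the list was 7.69, 6.68, 7.09, 6.56 and 6.47. The list and Edn1 were thus both higher in SP-C+ replicates 1, 2 and 3 than in replicates 4 and 5, without overlap, and both were highest in replicate 1. Their order otherwise differed. Replicate 2 had a lower list mean than replicate 3 but a higher Edn1 value (8.38 against 8.21). The list mean of replicate 2 also lay within the Axin2+ range, while its Edn1 value lay above all Axin2+ arrays. Pdgfb measured 7.54, 7.38, 7.55, 7.72 and 7.43 in SP-C+ replicates 1 to 5. Without SP-C+ replicates 1, 2 and 3, 2 of the 10 markers were higher in Axin2+ arrays, against 6.78% of all genes. In that fit Pdgfb was at 2.18 (adjusted p = 3.05e-04 in limma). The part of endothelial RNA in the Edn1 and Pdgfb values was not tested. Mesenchymal markers (0 of 10 called, and 0 at an unadjusted p under 0.05) had list means of 5.87 to 6.12 in Axin2+ and 5.83 to 6.42 in SP-C+ arrays. Leukocyte markers (2 of 9 lower, Mrc1 and Adgre1, calls that each ended in 8 of the 10 fits without 1 array) had means of 6.71 to 6.86 in Axin2+ and 6.99 to 7.22 in SP-C+ arrays.

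**Figure D5:**
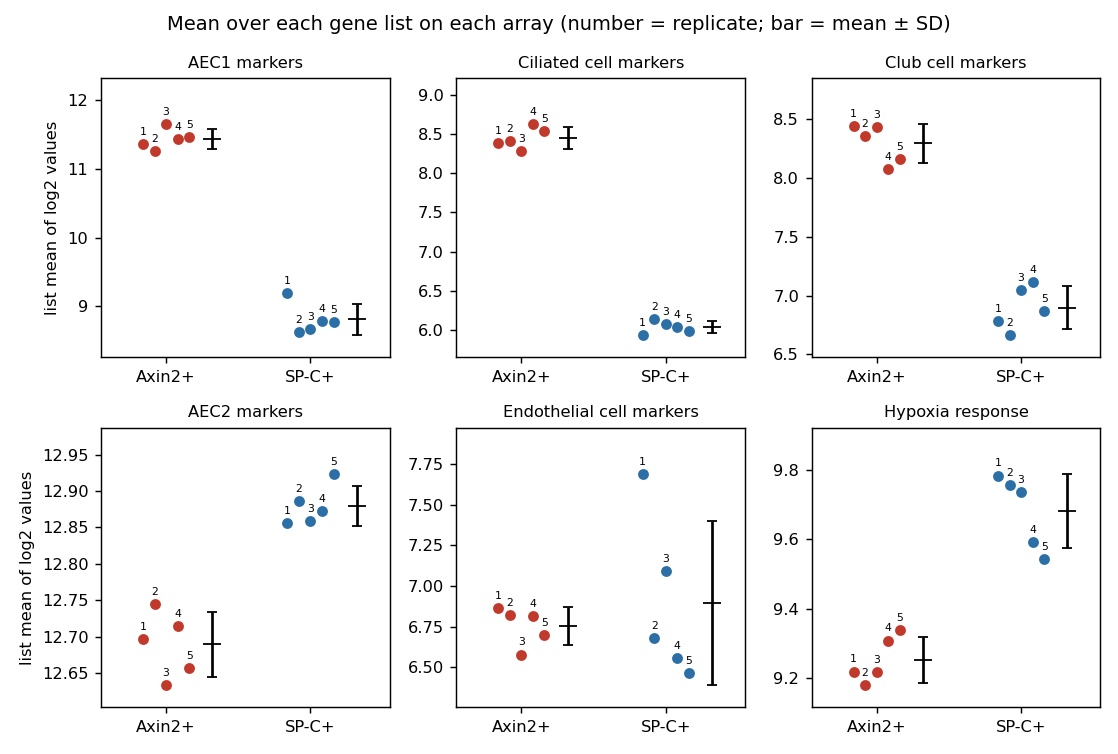
Mean of the log2 values of 6 gene lists on each array, with Axin2+ arrays in red on the left and SP-C+ arrays in blue on the right; numbers are replicates, black bars the mean ± SD (n = 5), and axes do not start at 0. AEC1, ciliated and club cell lists are higher and the hypoxia list lower in every Axin2+ array, and the endothelial list is highest in SP-C+ replicate 1 (7.69).

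The genes whose profiles over the 10 arrays lay nearest to Vegfa and Pdgfb were found by the root mean square distance between log2 values centred on each gene's own mean. Among 19253 named genes, those nearest to Vegfa were Itpka, an inositol trisphosphate kinase gene (0.08, with a difference of 1.02), Trpc1, a cation channel gene (0.09, 1.0), and Dnaic2, an axonemal dynein gene (0.09, 1.02). Those nearest to Pdgfb were Nbl1, which encodes a secreted BMP antagonist (0.12, 2.34), Myo16, an unconventional myosin gene (0.18, 2.30), and Prkag3, an AMPK subunit gene (0.18, 2.10). The distances are on the log2 scale and describe these arrays only.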

How the data were processed

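Values of 41345 probe sets on 10 arrays came from the deposited table, which the authors had normalized on the log2 scale. From each sample 100 ng of RNA was amplified and biotin-labelled, per the labels. As tools, the submitters' processing notes list limma, oligo and RMA, with neither version nor role. No label gives the log base, which was taken from the range of values, 1.69 to 14.16. The number of arrays limits the precision.

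Probe sets with exactly 1 gene symbol in the platform annotation (23521) were kept, and for the 1082 genes with several the probe set with the highest mean was used, giving 22180 genes. Groups came from sample titles. Genes were tested two-sided with limma 3.58.1 (lmFit, eBayes, no covariates) under R 4.3.3, with Benjamini-Hochberg adjustment over all genes. The ratio of Pdgfb to Pdgfa within an array was tested by exact permutation over all 252 assignments of the arrays, a test added after the data were seen. Ratios of Vegfa to Vegfb and of Pdgfa to Pdgfc were computed too but are not reported, since the genes of each pair were already called in opposite directions. In a simulation with 22180 genes and independent noise, 50 genes each were given a log2 change of 0.5, 1, 2 or 3. The fit recovered 62% of genes with a change of 0.5, 94% with a change of 1 and 98% with a change of 2. Of its calls 4.84% were false. Far fewer genes changed there than the 3894 called in these data, so the rates need not hold here.

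The 9 genes, the lists and the alternatives were chosen with earlier results of these data known. Of 160 list names 152 matched a gene by symbol; the others were not analysed here. Named were the 9 genes and every called gene of the 5 partner lists. Of every other list, up to 2 called rises and 2 called falls were named, the largest ones. The 3 genes nearest in profile to Vegfa and to the called ligand with the largest difference were named too. Axin2, Epas1, Sftpc, Sftpd and the partner genes and the basal and neuroendocrine markers that were not called were named in addition. Alternatives were the replicate block, median centring, quantile normalization, filters at the 25th and 50th percentile of mean values, array weights, a variance trend on intensity with robust estimation, the mean over probe sets, a fit of all probe sets, left-out arrays, an adjusted p under 0.01, and the exact permutation test of each ligand gene.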

Additional observations from a re-analysis of the deposited data

Results flagged for a closer look

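Pgf was low on 1 SP-C+ array: replicate 1 measured 4.92, while the other SP-C+ arrays lay between 5.18 and 5.26. Its distance from the nearest array was large for a group of 5. Of 40 groups of arrays examined (the 9 ligand genes and the 11 called partner genes), 1 had such an array, and chance gives about 1 in 20. Without SP-C+ replicate 1 the Pgf difference was 0.02 (adjusted p = 0.930 in limma).

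A further probe set, which the annotation assigns to both Shh and the uncharacterized gene 9530036O11Rik and which therefore entered no comparison of genes, was higher in Axin2+ arrays by 1.23 ± 0.19 SE (adjusted p = 0.00135 in limma over all probe sets). It measured 9.66, 9.80, 10.31, 9.82 and 9.78 in Axin2+ arrays, against 8.68, 8.17, 8.34, 8.93 and 9.12 in SP-C+ arrays. The groups did not overlap, and SP-C+ replicates 4 and 5 were again the highest of their group. The Shh probe set itself was at 0.39 and did not pass. Which of both genes this probe set measures was not tested.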

How the results depend on the processing

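Across 23 alternatives each, Vegfa, Vegfb, Pdgfa and Pdgfb kept their direction and their call, with adjusted or exact p-values up to 0.0118 (Vegfb). The number of ligand genes called was 4 to 6 without 1 array. Pdgfc, at -0.65 (adjusted p = 0.0499964), was lost with all probe sets (-0.65, 0.0963), with an intensity trend and robust variances (-0.65, 0.0536), in the exact permutation test (-0.65, p = 0.0556), at an adjusted p under 0.01 and without SP-C+ replicates 1, 2 and 3 (-0.31); without 1 array it ran from -0.82 to -0.53. Shh passed among genes above the 50th percentile (0.39, adjusted p = 0.0484) and, at 0.63, without SP-C+ replicates 4 and 5 (9.10e-04), and ran from 0.31 to 0.50 without 1 array. Edn1 was -0.82 without SP-C+ replicates 4 and 5 and reversed to 0.44 without replicates 1, 2 and 3; without 1 array it ran from -0.53 to -0.12. Pgf, never called, was at -8e-04 without SP-C+ replicates 1, 2 and 3 against 0.08. The cause of these changes was not tested. Called partner genes numbered 11 of 47, 6 without SP-C+ replicates 1, 2 and 3 and 6 at an adjusted p under 0.01, and 9 to 12 without 1 array; all called genes numbered 3894, against 2249 at an adjusted p under 0.01 and 2974 to 4023 without 1 array. Both groups carry replicate numbers 1 to 5, but same-numbered arrays did not deviate together (correlations of -0.229 to 0.013 over 5 pairs, with 0 pairs in which each array correlated best with its own number). With the replicate number as a block, 2979 genes, 4 ligand genes and 9 partner genes were called, and Pdgfc, at -0.65, did not pass (adjusted p = 0.0751). Vegfc and Pgf gave no value among genes above the 50th percentile. A fit of each gene's other single-symbol probe sets was not run, because no ligand gene has a second one; for the same reason the mean over probe sets left the ligand values as they were.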
